A study of Mus musculus with 12 samples.

Results

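The nuclear-encoded subunits of the oxidative phosphorylation system were described in bulk RNA-seq of sorted mouse blood progenitors. Members were every row of the deposited table whose Ensembl ID carries, in the GENCODE annotation of mm10, a protein-coding symbol starting with Ndufa, Ndufb, Ndufc, Ndufs, Ndufv, Uqcr, Cox4 to Cox8 or Atp5, or one of Sdha, Sdhb, Sdhc, Sdhd, Cyc1 and Cycs. That rule used no measured value. It found 95 of 38924 IDs, namely 36 subunits of complex I, 4 of complex II, 9 of complex III, cytochrome c, 20 of complex IV, 16 of complex V, and 9 genes that the symbols catch although they are no subunits (the complex I assembly factors Ndufaf1 to Ndufaf8 and the coupling factor Atp5s). Ndufa4 and Ndufa4l2 were counted with complex IV, where the protein sits despite its name. Of the members, 90 were among the 12718 genes tested (at least 1 TPM in at least 4 libraries). The other 5 were low or at 0 in the table: Cox7b2, Cox8c and Ndufa4l2 were listed at 0 in every library, Cox8b did not exceed 0.87 TPM, and Atp5g2 reached 9.39 and 4.23 TPM in the GMP libraries of batch 2 and was listed at 0.01 or 0 in the others. An exact 0 in a table without read counts can be a failed estimate.

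The 12 libraries cover 3 progenitor types from the bone marrow of wild-type female C57Bl/6J mice, with 4 libraries per type and, by the sample titles, 2 of each type in each of 2 batches. Cells bearing TER-119, Gr-1, B220, CD11b or CD3e were depleted in every group. Lymphoid-primed multipotent progenitors (LMPP) were sorted as Sca1+ cKit+ CD150- CD34+ Flk2hi cells, common lymphoid progenitors (CLP) as Sca1lo cKitlo IL7Ra+ Flk2+ cells, and granulocyte-monocyte progenitors (GMP) as Sca1- cKit+ CD150- CD34+ FcgR+ cells. The age of the mice, the RNA input and whether libraries came from separate animals are not given for these libraries, so the p-values here speak of the spread among these libraries, some or all of it perhaps technical.

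Complexes I and II pass electrons from NADH and succinate to ubiquinone, complex III passes them to cytochrome c, and complex IV reduces oxygen. Complexes I, III and IV pump protons across the inner mitochondrial membrane, and complex V, the ATP synthase, uses the gradient to make ATP. Most subunits are encoded in the nucleus and a small core in mitochondrial DNA, and blood stem and early progenitor cells are known for a stronger reliance on glycolysis than their dividing descendants.

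The labels were checked on markers first. Mpo, the granule peroxidase of the myeloid lineage, stood at 13726 to 15970 TPM in GMP and at no more than 1401 elsewhere, and Il7r was at 76.6 to 130 TPM in all 4 CLP libraries. Flt3, which encodes the Flk2 of the CLP gate, was at 138 and 146 TPM in the CLP libraries of batch 1 but at 8.91 and 17.0 in those of batch 2, against 102 to 156 in LMPP. The summed B lineage markers were at 983 and 91.9 TPM in the CLP libraries of batch 1 and at 4832 and 6078 in those of batch 2, and the summed proliferation genes at 2564 and 2115 against 5988 and 6376. LMPP batch 2 replicate 1 and CLP batch 2 replicate 1 held 28570 and 13618 TPM of erythroid markers (41.1 to 2478 in the other 10 libraries) and 26160 and 12076 TPM of mature neutrophil markers (14.8 to 1966). The counts of called members in the 3 comparisons of types were therefore also made without both CLP libraries of batch 2 and without these 2 haemoglobin-rich libraries.

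Messages of the respiratory chain took the smallest part of the LMPP libraries and the largest part of the GMP libraries. Summed over all 95 members, LMPP held 15752 and 17510 TPM in batch 1 and 12644 and 11383 in batch 2. CLP held 17104, 16666, 17643 and 16759 TPM in the same order of batches. GMP held 22113 and 21553 TPM in batch 1 and 18509 and 18401 in batch 2. No GMP library overlapped with an LMPP or CLP library, whereas LMPP batch 1 replicate 2 lay inside the CLP range. As a share of all TPM the members made up 1.43% ± 0.282 (SD, n = 4) in LMPP, 1.70% ± 0.0404 (SD, n = 4) in CLP and 2.02% ± 0.197 (SD, n = 4) in GMP, without a test. One gene, Atp5b, made up 16.3% to 32.1% of the sum. Without it the means were 10788 ± 2680 TPM (SD, n = 4) in LMPP, 13077 ± 1180 TPM (SD, n = 4) in CLP and 15162 ± 2840 TPM (SD, n = 4) in GMP. Without Atp5b, GMP lay above the other types within each batch but not across batches. The GMP libraries of batch 2 (12781 and 12646 TPM) were then below the CLP libraries of batch 1 (14235 and 13949) and LMPP batch 1 replicate 2 (13465). In bulk RNA, fewer cells of a type and less RNA per cell cannot be told apart.

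The same order held for most single members. By mean level over both batches, 59 of the 90 tested members ran LMPP, CLP, GMP from low to high, 13 ran CLP, LMPP, GMP and 12 ran LMPP, GMP, CLP, while the remaining 6 were lowest in GMP or highest in LMPP. The step from LMPP to CLP differed by batch. In batch 1 alone 47 members were lower in LMPP than in CLP and 43 higher, and in batch 2 alone 76 and 14. The median member stood 0.42 and 0.56 below its own mean over all libraries, on the log2(TPM + 1) scale, in the LMPP libraries of batch 2. It stood 0.46 and 0.36 above it in the GMP libraries of batch 1. LMPP batch 2 replicate 3 was the lowest of the 12 libraries for 42 members and LMPP batch 2 replicate 1 for 15, and GMP batch 1 replicate 1 was the highest for 34. The counts of orders and of lowest and highest libraries were not made for all genes.

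**Figure D1:**
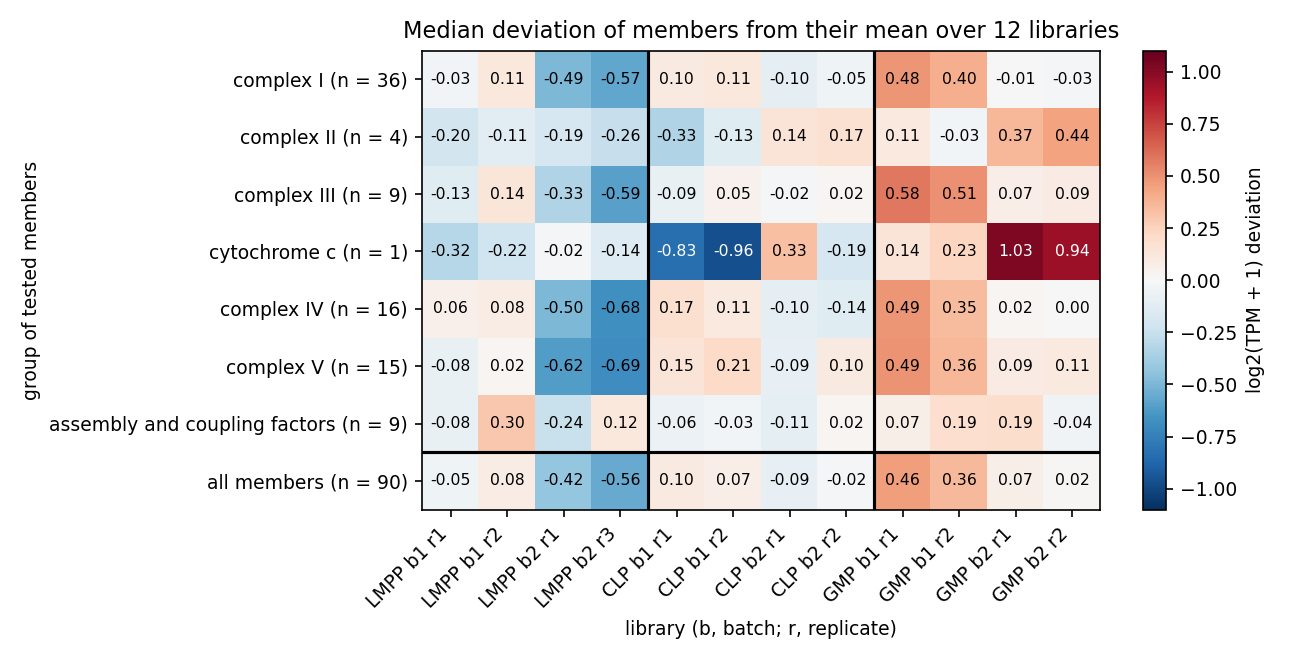
Median deviation of the tested members of each complex (rows) from their own mean over the 12 libraries (columns), in log2(TPM + 1) units, with lower values in blue and higher in red. The 2 LMPP libraries of batch 2 are the lowest for all members (medians -0.42 and -0.56) and the 2 GMP libraries of batch 1 the highest (0.46 and 0.36).

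The comparison of LMPP with GMP asks how the lymphoid-primed progenitor differs from the committed myeloid one. Of the 90 members tested, 48 were lower in LMPP and 1, Cox7a2l, was higher (limma on log2(TPM + 1), adjusted over all genes tested). Over all genes tested 7.62% were called lower and 21.3% higher, so the members ran against the direction of the table. The median difference of the members was -0.48 on the log2 scale against 0.24 for all genes, and 84 members were below 0, against 34.0% of all genes. Within batch 1 alone the median was -0.35 and within batch 2 alone -0.55, and 80 members were below 0 in both. In 56 members every LMPP library lay below every GMP library of its own batch, which 12.7% of all genes did.

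The number of calls in this comparison moved with the setting and the direction did not. It came to 35 lower members in batch 1 alone, 23 in batch 2 alone, 57 without both CLP libraries of batch 2, 39 without the haemoglobin-rich pair and 28 without GMP batch 1 replicate 1. The lower calls over all genes moved as well. In the same order they were 890 of 12806, 319 of 13281, 1480 of 12406, 933 of 12216 and 660 of 12642. Without the batch term in the model 9 members were lower, with 540 of 12718 over all genes. The calls of Cycs, Cox5a, Cox7a2l and others were then lost. The share of TPM taken by ribosomal RNA, mitochondrial ribosomal RNA included, was highest in LMPP, at 16.6% to 27.9%. It was 16.5% to 20.6% in CLP and 10.8% to 20.1% in GMP. Abundant RNA was then taken out of the total, namely ribosomal RNA, all transcripts of mitochondrial DNA and the alpha and beta globins. With that, 36 members were lower in LMPP than in GMP, with a median of -0.37. Over all genes 757 of 12699 were then lower, with a median of 0.35. The effect of ribosomal RNA alone was not tested. Median-ratio scaling shifted the all-gene median from 0.24 to 0.08 and the calls over all genes from 2707 higher and 969 lower to 1934 and 1616. On that scale 65 members were lower, with a median of -0.68.

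**Figure D2:**
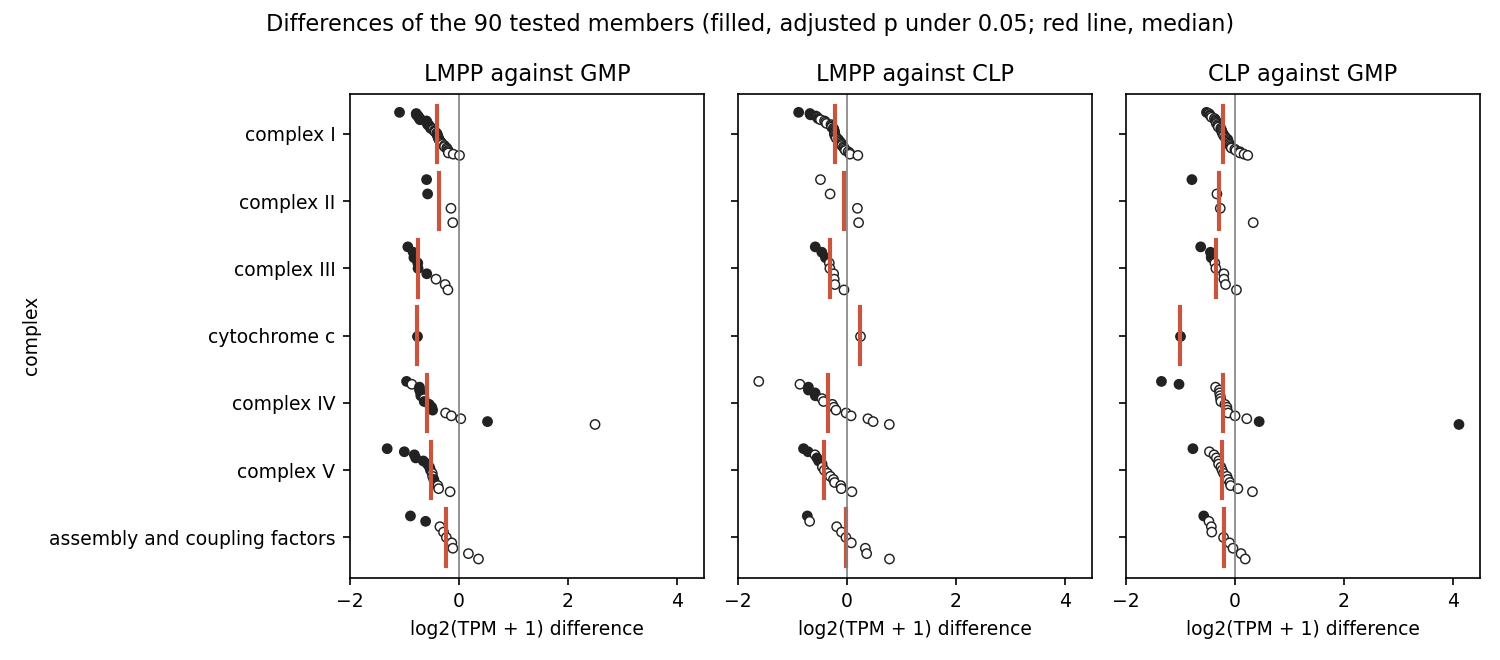
Log2 difference of each tested member (points, grouped by complex) in the 3 comparisons of cell types, filled where adjusted p was under 0.05, with the median as a red line. In LMPP against GMP the medians run from -0.76 (cytochrome c, 1 gene) and -0.75 (complex III) to -0.23 (assembly and coupling factors).

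All complexes lay on the lower side in LMPP against GMP, but unevenly. Complex III had 6 of 9 members called lower with a median of -0.75, complex V 10 of 15 with -0.52, complex IV 9 of 16 with -0.59, complex I 18 of 36 with -0.40 and complex II 2 of 4 with -0.36. The assembly and coupling factors had 2 of 9 called lower, with a median of -0.23. Of the members' TPM complex V took 48.2% ± 2.97 (SD, n = 4) in LMPP, 48.5% ± 5.5 (SD, n = 4) in CLP and 49.9% ± 4.48 (SD, n = 4) in GMP. Cytochrome c took 0.274%, 0.199% and 0.343% on average in LMPP, CLP and GMP, and complex II 2.87%, 2.29% and 2.63%. These shares were not tested.

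In complex I, the NADH dehydrogenase, most members are accessory subunits that surround the enzyme's core, and these carried most calls. Of 29 accessory members 16 were lower in LMPP than in GMP (median -0.41), and of the 7 catalytic core members 2 were (median -0.22). The called core members, Ndufs7 and Ndufs8, had transcripts of 758 and 780 bases, and the rest of the core 1046 to 2590. Over the 90 members the difference correlated with transcript length at a Spearman rho of 0.32. The part of length in this split was not tested. Ndufs5, an accessory subunit on the intermembrane-space side, was at 42.9 and 73.5 TPM in LMPP batch 1 and 37.1 and 28.4 in batch 2, at 70.4, 75.2, 80.2 and 95.8 in CLP, and at 116, 103, 72.5 and 83.2 in GMP. LMPP batch 1 replicate 2 overlapped with the lowest GMP library, and within each batch LMPP and GMP did not overlap. The difference was -1.09 (SE 0.23, adjusted p = 0.00398), and none of the 29 alternative fits ended the call. Ndufs8, an iron-sulfur subunit of the core, was at 58.5, 60.9, 42.5 and 36.5 TPM in LMPP, at 70.6, 69.8, 75.1 and 66.8 in CLP and at 86.5, 84.0, 66.0 and 61.9 in GMP. It fell below the GMP level by 0.60 (SE 0.14, adjusted p = 0.00783), with no overlap between the LMPP and GMP libraries.

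Other members of the complex I core differed less between LMPP and GMP. Ndufs7, which holds the last iron-sulfur centre before ubiquinone, differed by -0.58 (adjusted p = 0.0294), and leaving out 1 library ended the call in 5 of 12 cases (highest adjusted p = 0.103). Ndufs3 was at 60.8, 72.8, 58.8 and 53.8 TPM in LMPP and at 64.0, 66.2, 66.0 and 48.7 in GMP, which overlapped (difference 0.01, adjusted p = 0.962). Ndufv1, which binds NADH, missed the threshold at -0.48 (adjusted p = 0.0671). Ndufs1 and Ndufv2, which carry further redox centres, were at -0.11 and -0.21 with adjusted p-values of 0.708 and 0.484. Against CLP, 5 of the 36 complex I members were lower in LMPP, where 2.8% of all genes were, with a median of -0.23 against 0.17 for all genes.

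Complex II, the succinate dehydrogenase, is encoded by 4 nuclear genes and is also an enzyme of the citric acid cycle. Its 2 catalytic members did not pass the test between LMPP and GMP: Sdha, the flavoprotein, was at 108, 122, 147 and 175 TPM in LMPP and at 123, 111, 181 and 189 in GMP (-0.11, adjusted p = 0.517). Sdhb, the iron-sulfur subunit, was at 50.9, 47.7, 41.0 and 50.3 TPM in LMPP and at 58.6, 56.3, 46.7 and 49.2 in GMP (-0.15, adjusted p = 0.485). Both pairs of groups overlapped. The 2 membrane anchors were called, Sdhc at -0.58 (adjusted p = 0.0237) and Sdhd at -0.59 (adjusted p = 0.0238). Sdhd was at 188, 221, 150 and 103 TPM in LMPP, 131, 147, 161 and 121 in CLP and 245, 284, 214 and 227 in GMP. The Sdhd call in LMPP was lost without GMP batch 1 replicate 2, GMP batch 2 replicate 1, GMP batch 2 replicate 2 or LMPP batch 2 replicate 3 (highest adjusted p = 0.0644). Sdhd was also lower in CLP than in GMP (-0.79, SE 0.17, adjusted p = 0.00651), where no libraries overlapped. In batch 2 alone the difference was -0.66 and was not called. No complex II member was called between LMPP and CLP, with a median of -0.06.

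Complex III and cytochrome c showed the largest shift from GMP to LMPP. Uqcrc1, a core subunit of complex III (ENSMUSG00000025651, chr9:108936633-108949623, plus strand), was at 45.5, 40.9, 32.9 and 35.8 TPM in LMPP, at 48.7, 41.2, 48.1 and 55.0 in CLP and at 84.4, 84.5, 66.7 and 65.3 in GMP. All 4 GMP libraries lay above the other 8. The difference between LMPP and GMP was -0.94 (SE 0.14, adjusted p = 0.00068), and that between CLP and GMP was -0.63 (adjusted p = 0.00795). In batch 2 alone the CLP to GMP difference was -0.35 and was not called. Cyc1, the haem-bearing cytochrome c1 that reduces cytochrome c (ENSMUSG00000022551, chr15:76343523-76346260, plus strand), was at 56.6, 67.9, 67.0 and 71.4 TPM in LMPP, at 74.0, 62.3, 106 and 93.5 in CLP and at 120, 102, 115 and 109 in GMP. LMPP and GMP did not overlap, and LMPP fell by 0.76 (SE 0.14, adjusted p = 0.0022). The CLP to GMP difference of Cyc1 (-0.43, adjusted p = 0.0428) was lost in 9 of the 12 fits that left out 1 library (highest adjusted p = 0.136).

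Cycs, the mobile electron carrier between complexes III and IV and also an activator of apoptosis once in the cytosol (ENSMUSG00000063694, chr6:50562563-50566538, minus strand), moved apart from most members in batch 2. It was at 34.1, 36.4, 41.9 and 38.5 TPM in LMPP, at 23.6, 21.4, 53.9 and 37.3 in CLP and at 47.2, 50.3, 88.1 and 82.9 in GMP. The LMPP libraries all lay below the GMP libraries, and the CLP libraries lay below the GMP libraries of their batch. Cycs fell by 0.76 in LMPP (SE 0.18, adjusted p = 0.00756) and by 1.0 in CLP (adjusted p = 0.00172) against GMP. Processed copies of Cycs are common in mammalian genomes, so the share of reads given to the gene itself is uncertain.

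The small complex III subunits fell as well. Uqcr10, which lies next to cytochrome c1, was at 324, 342, 159 and 144 TPM in LMPP, at 455, 456, 246 and 251 in CLP and at 557, 518, 268 and 267 in GMP. The batches differed more than the types, and within each batch the 3 types did not overlap. Uqcr10 fell by 0.75 in LMPP against GMP (SE 0.10, adjusted p = 0.000235) and by 0.58 against CLP (adjusted p = 0.0042). Uqcr11, the smallest subunit, differed by -0.84 between LMPP and GMP (adjusted p = 0.000167) and Uqcrq by -0.83 (adjusted p = 0.00061). Uqcrfs1, the Rieske iron-sulfur protein, was at -0.59 (adjusted p = 0.0298), a call lost in 6 of the 12 fits that left out 1 library (highest adjusted p = 0.0887).

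Promoter sequences are given for 3 members of this stretch of the chain that fell in LMPP and that hold a match to the motif of NRF1, a factor known for sites in respiratory genes. They run from 250 bases before to 50 after the RefSeq start in GRCm38.p6, 5' to 3' on the gene's strand. Capitals mark the matches on either strand: Cycs (chr6:50566520-50566819, minus) and Uqcr11 (chr10:80406772-80407071, minus) hold 1 NRF1 match each, Uqcr11 also 1 ETS match, and Uqcrc1 (chr9:108936398-108936697, plus) 2 NRF1 matches that overlap.
Cycs: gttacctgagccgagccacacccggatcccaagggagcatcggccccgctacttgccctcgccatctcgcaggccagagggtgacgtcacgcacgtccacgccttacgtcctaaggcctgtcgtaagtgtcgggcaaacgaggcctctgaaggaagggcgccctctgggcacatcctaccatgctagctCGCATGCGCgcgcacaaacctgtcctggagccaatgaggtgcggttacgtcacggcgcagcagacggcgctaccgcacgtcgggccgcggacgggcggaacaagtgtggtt
Uqcr11: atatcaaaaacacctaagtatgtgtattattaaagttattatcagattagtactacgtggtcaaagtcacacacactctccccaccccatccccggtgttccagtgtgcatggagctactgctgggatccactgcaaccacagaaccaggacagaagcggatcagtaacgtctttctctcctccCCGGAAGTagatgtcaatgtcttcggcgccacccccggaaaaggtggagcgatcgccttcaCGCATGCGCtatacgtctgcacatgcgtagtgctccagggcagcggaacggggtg
Uqcrc1: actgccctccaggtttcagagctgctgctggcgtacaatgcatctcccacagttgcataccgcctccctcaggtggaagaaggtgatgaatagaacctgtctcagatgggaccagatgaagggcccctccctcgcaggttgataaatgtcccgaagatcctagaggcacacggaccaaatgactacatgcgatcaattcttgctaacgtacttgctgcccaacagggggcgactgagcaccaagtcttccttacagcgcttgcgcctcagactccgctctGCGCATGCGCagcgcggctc

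Of the members, 75 have a RefSeq promoter, 72 of them tested. Of those 72, 10 (13.9%) held the NRF1 motif GCGCATGCG on either strand, against 4.43% of 8842 protein-coding genes tested. Of all 75, 11 (14.7%) did, against 1.95% of all 27025 promoters in the table. The YY1 motif AAGATGGCG was in 8 members (11.1% of those tested and 10.7% of all), against 3.94% and 1.64%. The ETS motif CCGGAAGT, which the factor GABP can read, was in 5 members (6.94% and 6.67%), against 9.94% and 4.31%. A match describes the letters in this window and no binding was measured.

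In complex IV, cytochrome c oxidase, 9 of the 16 tested members were called lower and 1 higher in LMPP than in GMP. Cox6b1, which faces the intermembrane space (ENSMUSG00000036751, chr7:30616861-30626151, minus strand), was at 234, 281, 210 and 202 TPM in LMPP, at 376, 301, 372 and 336 in CLP and at 432, 390, 370 and 335 in GMP. All LMPP libraries lay below the other 8, whereas CLP and GMP overlapped. Cox6b1 fell by 0.73 against GMP (SE 0.12, adjusted p = 0.00134), a call that none of the 29 alternative fits ended, and by 0.58 against CLP (adjusted p = 0.0138), where 7 of the 29 ended it. Cox5a, a matrix-side subunit that binds a thyroid hormone derivative, was at 230, 247, 99.6 and 96.0 TPM in LMPP, 318, 329, 188 and 199 in CLP and 473, 425, 190 and 208 in GMP. Its difference was -0.96 against GMP (adjusted p = 0.000223) and -0.71 against CLP (adjusted p = 0.00541), with no overlap within either batch. Cox4i1, the largest nuclear subunit, was at 707, 684, 555 and 312 TPM in LMPP and at 922, 965, 688 and 625 in GMP (-0.55, adjusted p = 0.0207), and the call was lost without GMP batch 2 replicate 1 (adjusted p = 0.0612).

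Cox7a2l was the only member called higher in LMPP than in GMP. Its product is also called SCAF1 (ENSMUSG00000024248, chr17:83501918-83517330, minus strand). Some forms of it are known to tether complex III to complex IV in respiratory supercomplexes. Which form these mice carry and whether it acts so in them was not examined. It was at 415, 416, 334 and 260 TPM in LMPP, at 375, 387, 284 and 294 in CLP and at 276, 272, 219 and 212 in GMP. Within each batch GMP lay below the other types, and across batches LMPP batch 2 replicate 3 lay below both GMP libraries of batch 1. The difference was 0.52 for LMPP against GMP (SE 0.10, adjusted p = 0.00296) and 0.45 for CLP against GMP (adjusted p = 0.00806). In batch 2 alone the differences were 0.45 and 0.42, and neither was called there or without the batch term. Cox7a2, the subunit with which it shares sequence, was at 143, 146, 95.5 and 64.6 TPM in LMPP, 157, 131, 122 and 184 in CLP and 218, 222, 117 and 136 in GMP. Its LMPP to GMP difference of -0.64 (adjusted p = 0.0423) was lost in 7 of the 12 fits that left out 1 library (highest adjusted p = 0.126). Of the summed COX7A messages Cox7a2l made up 76.5% ± 2.95 (SD, n = 4) in LMPP, 68.9% ± 5.6 (SD, n = 4) in CLP and 59.1% ± 4.5 (SD, n = 4) in GMP, a description without a test.

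Cox6a2, the isoform of heart and skeletal muscle, stood high in the CLP libraries of batch 1. It was at 191 and 140 TPM in the CLP libraries of batch 1 and at 1.39 and 2.56 in those of batch 2, at 5.37 to 7.65 in LMPP and at 0.96 or below in GMP (ENSMUSG00000030785, chr7:128205435-128206387, minus strand). The 2 CLP batches differed by -5.82 (batch 2 against 1, SE 0.38, adjusted p = 1.58e-05), and Cox6a2 made up 30.6% of the COX6A messages in CLP batch 1 against 0.491% in CLP batch 2. CLP stood 4.12 above GMP (SE 0.98, adjusted p = 0.00956), a difference that was not called in batch 2 alone. The summed markers of plasmacytoid dendritic cells were also higher in CLP batch 1, at 577 and 403 TPM against 200 and 209 in CLP batch 2, 193 to 298 in LMPP and 129 to 183 in GMP. Of these markers Siglech was at 70.2 and 26.5 TPM in CLP batch 1 and 5.49 and 1.02 in CLP batch 2, Ccr9 at 13.2 and 7.88 against 2.91 and 1.90, and Irf8 at 157 and 97.7 against 32 and 23.9. Spib ran the other way, at 23.0 and 2.77 TPM against 36.8 and 45.6, and Tcf4 overlapped between the CLP batches, at 88.0 and 87.1 TPM against 69.0 and 95.7. Cd209d was listed at 0 in both CLP libraries of batch 1. Of the 10 markers 7 were tested, and 4 were higher and 0 lower in CLP than in GMP (limma, also 4 and 0 at an unadjusted p under 0.05). The list was added after the Cox6a2 values were seen, and the part of such cells in the result was not tested.

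The other isoform pairs were dominated by 1 member. Cox4i2, the lung and hypoxia isoform, did not exceed 2.85 TPM. Cox6b2, known from testis, was at 36.9, 31.7, 44.6 and 47.9 TPM in LMPP, 35.8, 29.2, 23.3 and 10.8 in CLP and 39.3, 34.9, 64.9 and 56.1 in GMP. The CLP to GMP difference was -1.02 (adjusted p = 0.0372), a call lost in 5 of the 12 fits that left out 1 library (highest adjusted p = 0.118). Ndufa4, a late-added subunit of complex IV, was at 656, 671, 346 and 239 TPM in LMPP and 551, 623, 319 and 303 in GMP, which overlapped (0.03, adjusted p = 0.869).

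**Figure D3:**
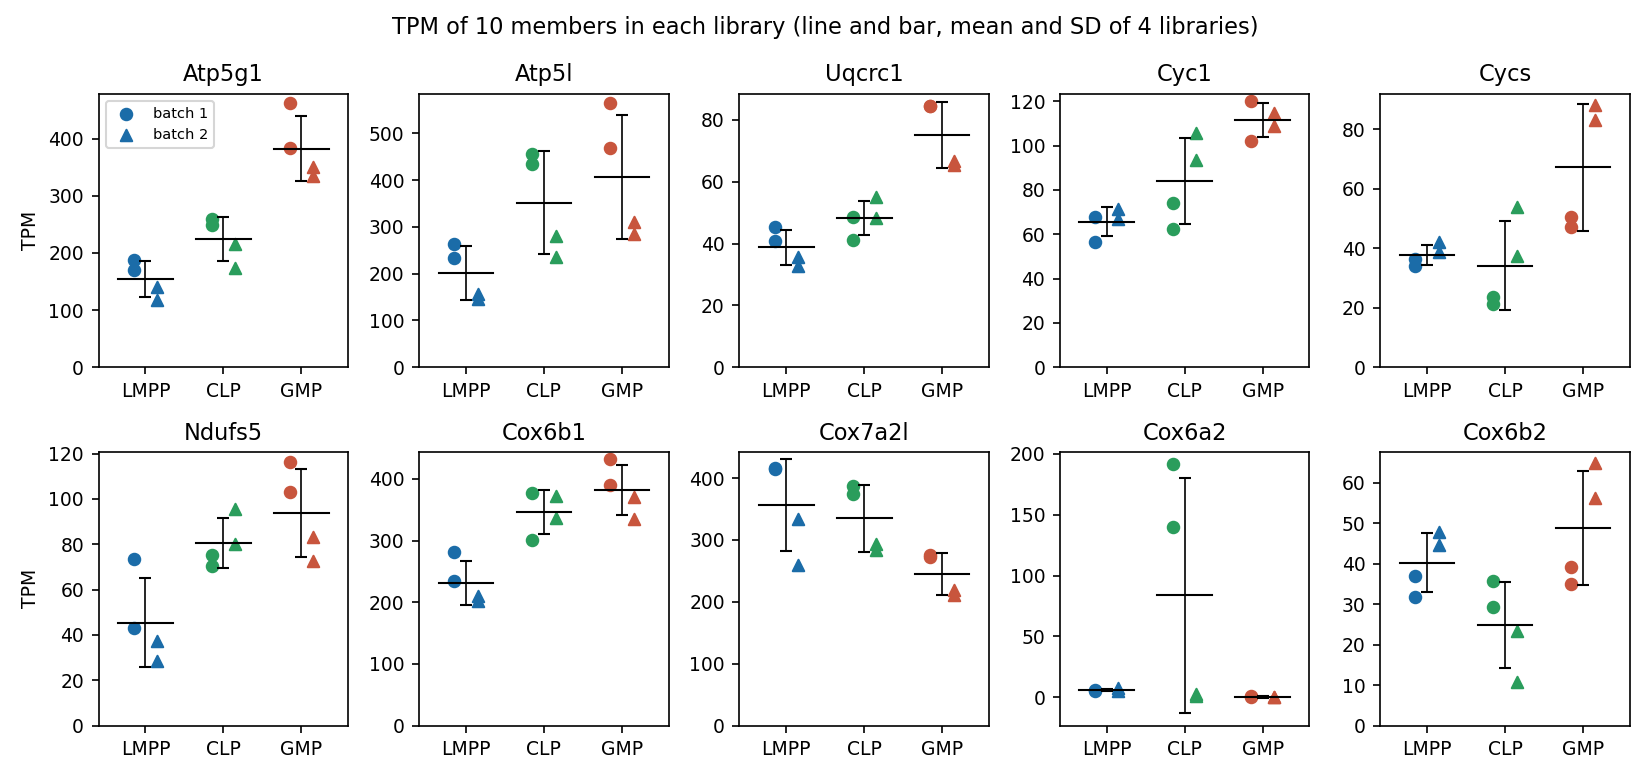
TPM of 10 members in each of the 12 libraries (circles, batch 1; triangles, batch 2), with the mean and SD of the 4 libraries of a type as line and bar. Atp5g1, Uqcrc1 and Cyc1 are separate between LMPP and GMP, Cox7a2l runs the other way, and Cox6a2 is high in the 2 CLP libraries of batch 1 (191 and 140 TPM).

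In complex V the membrane parts carried the largest differences. Atp5g1 and Atp5l of these parts have transcripts of 596 and 544 bases. In the catalytic head Atp5b and Atp5a1 have 1916 and 2471, and Atp5e 421. The part of length was not tested. Atp5g1, which encodes the c subunit of the rotor ring (ENSMUSG00000006057, chr11:96068852-96075670, minus strand), was at 188, 171, 118 and 140 TPM in LMPP, at 260, 249, 216 and 174 in CLP and at 462, 384, 350 and 334 in GMP. All GMP libraries lay above all CLP libraries, and LMPP overlapped with CLP only through CLP batch 2 replicate 2. Against GMP, Atp5g1 fell by 1.32 in LMPP (SE 0.12, adjusted p = 2.25e-05) and by 0.77 in CLP (adjusted p = 0.000582), and none of the 29 alternative fits ended either call. Against CLP, LMPP was at -0.55 (adjusted p = 0.0133), a call that 8 of the 29 ended. Atp5g1 and Atp5g3 encode the same mature c subunit with different targeting peptides, and Atp5g1 made up 36.2% ± 3.05 (SD, n = 4) of the 3 Atp5g messages in LMPP, 38.1% ± 8.29 (SD, n = 4) in CLP and 49.1% ± 4.51 (SD, n = 4) in GMP, shares that rest on Atp5g2 as listed. Atp5g3 itself was at -0.54 between LMPP and GMP (adjusted p = 0.0375), a call lost in 6 of the 12 fits that left out 1 library (highest adjusted p = 0.113).

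Atp5l, the g subunit that helps ATP synthase form dimers (ENSMUSG00000038717, chr9:44912557-44920742, minus strand), was at 234, 264, 157 and 147 TPM in LMPP, 434, 456, 235 and 281 in CLP and 564, 468, 285 and 310 in GMP. LMPP lay below both other types within each batch. It fell by 1.0 against GMP (SE 0.11, adjusted p = 6.83e-05) and by 0.80 against CLP (adjusted p = 0.00126). Atp5l has processed pseudogenes in the annotation, so its share of reads is uncertain, as it is for Atp5k, Atp5c1, Ndufab1, Uqcrh and Cox6c.

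The alpha and beta subunits of the catalytic head differed less clearly. Atp5e, the epsilon subunit, was called lower in LMPP against GMP and against CLP. Both calls held in all 12 fits that left out 1 library (limma, highest adjusted p = 0.0178 and 0.0318). Atp5b, the beta subunit that holds the catalytic sites (ENSMUSG00000025393, chr10:128083273-128090391, plus strand), was at 3120, 4045, 3517 and 3456 TPM in LMPP, 2869, 2717, 5659 and 4619 in CLP and 4247, 4197, 5727 and 5755 in GMP. No LMPP library reached a GMP library, but the difference of -0.48 missed the threshold (adjusted p = 0.051). Atp5a1, its alpha partner, was at 352, 400, 353 and 315 TPM in LMPP and at 508, 421, 629 and 582 in GMP (-0.58, adjusted p = 0.0308), a call lost in 5 of the 12 fits that left out 1 library (highest adjusted p = 0.0949). The TPM of Atp5b was 8.36 to 11.1 times that of Atp5a1 in the 12 libraries. In CLP both stood higher in batch 2 than in batch 1, Atp5b by 0.87 (adjusted p = 0.00153) and Atp5a1 by 0.74.

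Against CLP, LMPP was lower in 18 members and higher in 0 (2 at an unadjusted p under 0.05, limma, no other tool run), against 2.8% and 7.23% of all genes. The median was -0.24 against 0.17 for all genes. The 18 were 5 of complex I, 3 of complex III, 4 of complex IV, 5 of complex V and 1 assembly factor. The shift lay mainly in batch 2: the median was -0.02 within batch 1 and -0.51 within batch 2, and without both CLP libraries of batch 2 the number fell to 7, with a median of -0.06. Without the haemoglobin-rich pair it was 5, without LMPP batch 1 replicate 1 it was 9, and without LMPP batch 2 replicate 1, LMPP batch 2 replicate 3 or CLP batch 2 replicate 2 it was 10. The lower calls over all genes fell from 356 to 233, 159, 195, 190, 187 and 228 in these fits, in the order named. In 24 members every LMPP library lay below every CLP library of its batch, which 5.1% of all genes did.

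CLP against GMP gave 11 lower members and 2 higher, Cox6a2 and Cox7a2l, against 9.96% and 13.9% of all genes, so the lower share was near the background. The median was -0.23 against 0.09 for all genes. This comparison split the other way by batch, with a median of -0.36 within batch 1 and -0.08 within batch 2. Without both CLP libraries of batch 2 there were 32 lower members, with a median of -0.44, against 1464 of 12406 over all genes. There were 6 without GMP batch 2 replicate 1 or GMP batch 2 replicate 2 and 7 without GMP batch 1 replicate 1. Over all genes 882 of 12651, 883 of 12622 and 1002 of 12642 were lower in these fits, so these shares were near the background too. In 30 members every CLP library lay below every GMP library of its batch, against 14.6% of all genes.

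Batch 2 was lower than batch 1 for many members within each type. In LMPP 28 members were lower and 0 higher (1 at an unadjusted p under 0.05, limma, no other tool run), against 2.42% and 2.19% of all genes, with a median of -0.51. In GMP 27 were lower and 2 higher, against 2.07% and 6.16%, with a median of -0.35. In CLP 26 were lower and 13 higher, against 10.7% and 21.3%, with a median of -0.06. Single libraries moved these counts: in GMP the lower members numbered 8, 11, 8 and 5 without batch 1 replicate 1, batch 1 replicate 2, batch 2 replicate 1 and batch 2 replicate 2. In LMPP they numbered 17 and 12 without batch 1 replicate 1 and batch 1 replicate 2, and in CLP there were 15 lower and 7 higher without batch 1 replicate 2. Over all genes the lower calls in these fits were 91, 114, 81 and 60 in GMP and 151 and 123 in LMPP. In CLP 687 genes were lower and 1562 higher.

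The members with short transcripts differed most between batches. Uqcr11 was at 215 and 221 TPM in LMPP batch 1 and 65.8 and 74.8 in LMPP batch 2, at 260 and 297 against 95 and 96 in CLP, and at 419 and 355 against 128 and 129 in GMP. The batches did not overlap in any type, and the differences were -1.62, -1.53 and -1.58 (adjusted p = 0.000243, 4.85e-05 and 0.000364). Atp5e, the small epsilon subunit of the stalk, was at 545, 544, 233 and 199 TPM in LMPP, 836, 765, 284 and 320 in CLP and 737, 773, 293 and 298 in GMP, with batch differences of -1.33, -1.40 and -1.35 in LMPP, CLP and GMP. The members' median transcript was 751.5 bases long against 2526 for all tested genes. In the 30 members under 600 bases the median batch difference was -0.76 in LMPP, -0.61 in CLP and -0.75 in GMP, and in the 34 members of 1000 bases or more it was -0.19, 0.36 and 0.11. Across the 90 members the Spearman correlation of the batch difference with length was 0.51 in LMPP, 0.51 in CLP and 0.57 in GMP, against 0.21, 0.20 and 0.33 across all genes. These are descriptions across genes of the same libraries.

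The difference between LMPP and GMP was on the same side in all length classes. The medians were -0.61, -0.53 and -0.36 in members under 600 bases, of 600 to 1000 and of 1000 or more, with 19, 17 and 12 called lower. All 794 tested genes under 600 bases had a median of 0.27 in that comparison, with 92 higher and 83 lower. After a length trend was removed from each library, 59 members were lower in LMPP than in GMP, with a median of -0.63. That step also recentred all genes, whose median went from 0.24 to -0.02. Their lower calls went from 969 of 12718 to 1738 of 12525. The part of length in the difference was not tested.

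**Figure D4:**
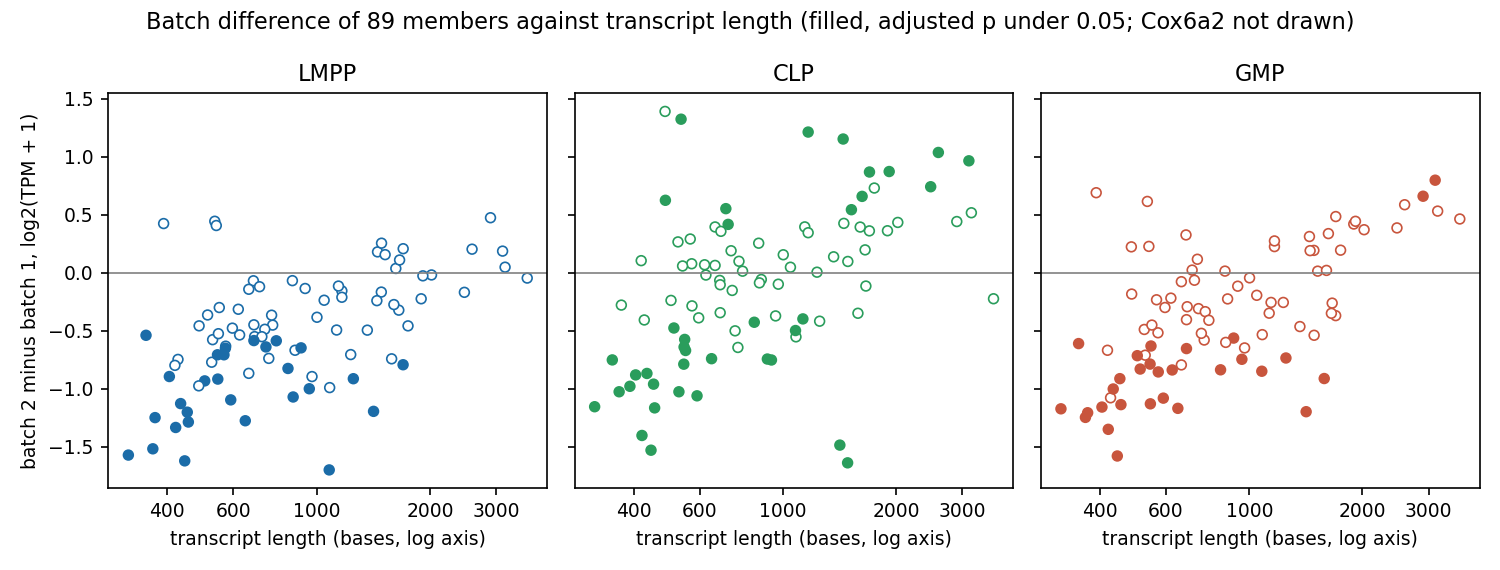
Log2 difference of batch 2 minus batch 1 for each tested member except Cox6a2 (points, filled where adjusted p was under 0.05) against transcript length in bases (log axis), one panel per cell type. Most short members lie below 0 and long members nearer to or above it, with Spearman correlations over all 90 of 0.51 in LMPP, 0.51 in CLP and 0.57 in GMP.

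Whether a type difference itself changed with batch was tested by interaction contrasts. For LMPP against CLP 9 members had a more negative difference in batch 2 and 1, Cox6a2, a more positive one, against 5.9% and 2.68% of all genes. The number of 9 was 21 without CLP batch 2 replicate 1, 20 without LMPP batch 2 replicate 1 and 0 without LMPP batch 1 replicate 2. Over all genes the number of 750 was 1333, 816 and 167 in these fits. For CLP against GMP there were 2 more negative (Cox6a2 and Cox6b2) and 1 more positive (Atp5h), against 2.46% and 3.02%. The positive count was 9 without CLP batch 2 replicate 1, where that over all genes rose from 384 to 851. For LMPP against GMP there were 0 and 0 (1 positive and 8 negative at an unadjusted p under 0.05, limma, no other tool run), against 0.0157% positive and 0.0% negative in all genes.

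The assembly and coupling factors, which build complex I or act beside complex V, had 2 called members in LMPP against GMP. Ndufaf8 was at 16.7, 15.1, 6.80 and 11.9 TPM in LMPP, 27.8, 19.1, 12.7 and 23.1 in CLP and 37.9, 30.7, 14.3 and 17.1 in GMP (LMPP against GMP -0.89, adjusted p = 0.0159), a call lost without GMP batch 1 replicate 1 (adjusted p = 0.0586). Ndufaf3 was at 11.3, 12, 14.9 and 13.3 TPM in LMPP, 19.1, 23.3, 20.8 and 24.6 in CLP and 29.3, 20.4, 15.9 and 17.2 in GMP. Its differences were -0.61 against GMP (adjusted p = 0.0346) and -0.73 against CLP (adjusted p = 0.0369), and leaving out 1 library ended these calls in 5 and 8 of 12 cases (highest adjusted p = 0.118 and 0.109). Over all genes tested 7.62% were called lower and 21.3% higher in LMPP than in GMP. Of 40 further assembly factors, 2 were lower (Uqcc2 and Cox10) and 1 higher (Ttc19), no larger a share than in all genes. Their median was -0.09, against 0.24 for all genes, and 0.0046 against 0.35 with the abundant RNA taken out of the total. Under median-ratio scaling it was -0.26 with 5 lower and 0 higher, and under quantile normalization -0.34 with 7 and 0. The all-gene medians were then 0.08 and -0.03.

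The 13 subunits encoded in mitochondrial DNA did not follow the nuclear ones. Their sum was 14336, 16405, 24800 and 35056 TPM in LMPP, 16276, 15674, 17507 and 22184 in CLP and 10831, 13015, 24863 and 25865 in GMP. The types overlapped and batch 2 was the higher in each. In the 3 comparisons of types limma called 0 of the 13, and at an unadjusted p under 0.05 it gave 3 higher in LMPP than in GMP, 2 higher in LMPP than in CLP and 0 in CLP against GMP (no other tool run). Their median difference between LMPP and GMP was 0.28, and 0.09 under median-ratio scaling. The ratio of their sum to that of the nuclear members ran from 0.49 in GMP batch 1 replicate 1 to 3.08 in LMPP batch 2 replicate 3. That library also had the highest share of ribosomal RNA, a share that itself includes mitochondrial ribosomal RNA.

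**Figure D5:**
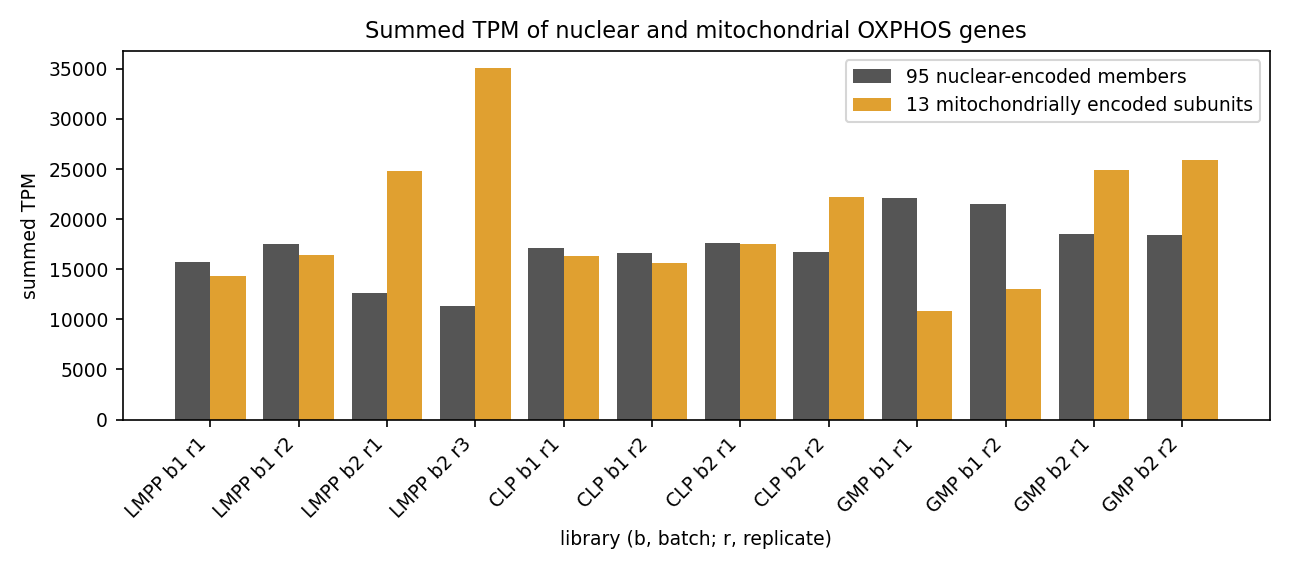
Summed TPM (bars) of the 95 nuclear members (grey) and of the 13 mitochondrially encoded subunits (yellow) in each library (b, batch; r, replicate). The nuclear sum runs from 11383 TPM (LMPP batch 2 replicate 3) to 22113 (GMP batch 1 replicate 1) and the mitochondrial sum from 10831 (GMP batch 1 replicate 1) to 35056 (LMPP batch 2 replicate 3).

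Lists of other mitochondrial genes were set beside the members in the comparison of LMPP with GMP, where 21.3% of all genes were called higher and 7.62% lower, with a median of 0.24. Of 16 citric acid cycle genes 3 were lower in LMPP and 0 higher (median -0.29), among them Cs, citrate synthase, at -0.65 (adjusted p = 0.00929) and Mdh2 at -0.55, and 7 were lower under median-ratio scaling. Of 19 carriers, porins and import genes 7 were lower and 0 higher (median -0.33), among them the import pore Tomm40 at -1.07 (adjusted p = 0.0009) and the ADP/ATP carrier Slc25a5 at -0.79 (adjusted p = 0.00235). Slc25a5 was at 393, 449, 318 and 341 TPM in LMPP and at 692, 602, 623 and 660 in GMP, without overlap. Of 18 genes of mitochondrial biogenesis and mtDNA expression 3 were higher in LMPP and 0 lower (median 0.30), which is no larger a share than in all genes. They were Gabpb1, the partner of the ETS factor GABP, at 50.7, 48.9, 63.8 and 59.9 TPM in LMPP against 17.2, 18.9, 33.7 and 25.2 in GMP (1.24, adjusted p = 0.00157), Ppargc1a, a coactivator of mitochondrial genes, at 4.06, 1.04, 6.18 and 9.56 against 0.18 or less (2.32, adjusted p = 0.00145), and Polg2 (0.57), whose call was lost under median-ratio scaling, which left 2 of the list higher and 1 lower. Of 25 proliferation genes 1 was higher and 2 were lower, with a median of 0.08 that was -0.11 under median-ratio scaling. These genes outside the member rule were named after their values were seen.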

How the data were processed

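Bulk RNA-seq of 12 libraries (4 each of LMPP, CLP and GMP) was used from a table that the authors deposited as TPM (transcript abundance scaled to the same total in every library) for 38924 Ensembl IDs. TPM sums to between 999999 and 1000001 in each library, so values are relative to the library's total and the depth behind a value is unknown; a value of 0 is called listed at 0. Per the submitters' processing notes, Bowtie2 2.2.0, RSEM 1.2.12, edgeR 3.10.0 and the mm10 build were used, with no role or order given. RSEM shares out reads among near copies, so members with processed pseudogenes are uncertain. The sources used here do not say if counting used strand. The 17 other columns of per-sample values were used in no step.

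Symbols, coordinates and lengths came from GENCODE mouse release 21 (37607 IDs with a symbol). Genes reaching 1 TPM in 4 or more libraries were fitted as log2(TPM + 1) with limma 3.58.1 in R 4.3.3, with a variance trend, on all 12 libraries with cell type and an additive batch term (8 residual degrees of freedom). A fold on this scale understates the change of low genes. Batch differences within a type and interactions came from a model of the 6 cells of type and batch (6 residual degrees of freedom). P-values were two-sided, Benjamini-Hochberg adjusted over all 12718 genes, and called under 0.05. The fits were tested on simulated data. Transcript length is that of the shortest transcript holding the longest coding sequence, a measure chosen after several were seen, and 193 tested genes had none. Same-numbered libraries correlated within batches at -0.106 to 0.169, the highest being between the 2 haemoglobin-rich libraries. With 2 libraries per type and batch such correlations cannot tell whether libraries were paired, and a number was not taken as a pairing.

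Members described one by one were chosen by rule: up to 8 called members with the largest difference each way per comparison, the highest and lowest by TPM per complex, the isoform sets, the catalytic subunits (1 is not reported here) and up to 5 called members each way between the CLP batches. Members and gene lists were chosen with earlier results of these data known. Alternatives covered offset, filter, scaling, abundant RNA, length, batch, variance trend, the replicate block and each library left out. The marker lists were erythroid and mature neutrophil genes (0 of 8 and 0 of 10 called in all 3 comparisons of types, by limma, and 0 of each at an unadjusted p under 0.05), B lineage (8 of 9 lower in LMPP than in CLP), T and NK (3 higher and 1 lower of 6 in LMPP against GMP), and the gate genes of LMPP (3 of 4 higher than in GMP), CLP (5 of 7 higher and 1 lower than in GMP) and GMP (6 of 8 higher and 1 lower than in LMPP). Of the CLP gate genes 5 of 7 were also higher in LMPP than in GMP. The mitochondrial, proliferation and plasmacytoid dendritic cell lists are given in the text.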

Additional observations from a re-analysis of the deposited data

Results flagged for a closer look

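Of 186 groups of 4 libraries examined, 7 held a library set apart from the other 3 by more than Dixon's critical gap for 4 values. Chance gives about 1 in 20 for values of a single normal sample. These groups span 2 batches, and a group whose other 3 values are 0 always passes, so that rate is only a rough guide here. Atp5g2 was at 0.01 TPM in LMPP batch 2 replicate 3 and listed at 0 in the other LMPP libraries, and Cox4i2 was at 0.3 TPM in CLP batch 2 replicate 1 and at 0 in the other CLP libraries. Cox8b was at 0.87 TPM in LMPP batch 1 replicate 1 and at 0.44 TPM in GMP batch 2 replicate 1. Ndufs3 was at 48.73 TPM in GMP batch 2 replicate 2 against 63.96 to 66.17 in the other GMP libraries. Uqcrfs1 was at 34.41 TPM in CLP batch 1 replicate 1 against 41.85 to 42.60 in the other CLP libraries. The summed assembly and coupling factors were at 192.58 TPM in GMP batch 1 replicate 2 against 183.38 to 183.89.

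The difference between types itself changed from batch 1 to batch 2, by limma's interaction contrast, for 13 results. For CLP against GMP the change on the log2 scale was -5.51 for Cox6a2 (adjusted p = 0.000613), -1.67 for Cox6b2 (adjusted p = 0.0429) and 0.809 for Atp5h (adjusted p = 0.0423). For LMPP against CLP it was 5.93 for Cox6a2 (adjusted p = 0.00136). Among complex I members the LMPP to CLP change was -0.999 for Ndufa12 (adjusted p = 0.0159), -1.20 for Ndufb5 (adjusted p = 0.0157), -0.908 for Ndufc2 (adjusted p = 0.0255) and -1.16 for Ndufv2 (adjusted p = 0.0280). It was -0.984 for Cox5b of complex IV (adjusted p = 0.0328). Among complex V members it was -0.911 for Atp5a1 (adjusted p = 0.0420), -0.900 for Atp5b (adjusted p = 0.0260), -0.969 for Atp5g3 (adjusted p = 0.0185) and -1.08 for Atp5h (adjusted p = 0.0122). The CLP libraries of batch 2 are those with low Flt3 and high B lineage and proliferation genes, whose part in these changes was not tested.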

How the results depend on the processing

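Depth is unknown for TPM, so no value has a counting interval, and 2 libraries per type and batch limit the precision. The medians of the members in LMPP against GMP were below 0 in all alternatives, and single members kept their direction and side of the threshold in 4638 comparisons, lost a call in 430, gained one in 155 and reversed in 1 (Ndufs8 between CLP batches, -0.446 under quantile normalization). The cause was not tested for any change below, and the number of calls over all genes moved between settings as well. Removing the length trend within 1 batch was chosen after seeing the data.

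In LMPP against GMP the 48 lower members became 9 without a batch term, 23 in batch 2 alone and 18 with the replicate block. The 1 higher became 2 with an offset of 0.1, with only the 2 types, in batch 1 alone (also with the length trend removed) and without both CLP libraries of batch 2, and 0 without a batch term. In LMPP against CLP the 18 lower became 0 without a batch term, 4 with only the 2 types, 6 in batch 1 alone, 7 without both CLP libraries of batch 2, 5 without the haemoglobin-rich pair, 1 with the replicate block and 4 with the length trend removed in batch 1. The 0 higher became 1 with quantile normalization, without abundant RNA, in each batch alone and with the length trend removed in batch 2. The median of -0.24 became -0.507 in batch 2 alone and -0.682 with the length trend removed there. In CLP against GMP the 11 lower became 21 with median-ratio scaling, 6 without a batch term, 32 without both CLP libraries of batch 2, 24 and 4 in batch 1 and batch 2 alone, and 35 and 5 with the length trend removed in batch 1 and batch 2. The 2 higher became 1 without a batch term and in batch 2 alone, with or without the length trend. The median of -0.23 became -0.438 without both CLP libraries of batch 2 and -0.46 with the length trend removed in batch 1.

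Between batches, the CLP counts of 13 higher and 26 lower became 7 higher with median-ratio scaling, 5 higher with quantile normalization and 10 lower with the length trend removed. The GMP counts of 2 higher and 27 lower became 0 higher with median-ratio scaling, 1 with quantile normalization, 4 without abundant RNA, and 0 with the length trend removed or no variance trend, with 10 lower and 12 lower under the last pair. The LMPP counts of 0 higher and 28 lower became 1 higher without abundant RNA, 15 lower with the length trend removed and 14 lower with no variance trend. For the interactions, LMPP against CLP (1 and 9) became 2 positive with median-ratio scaling, quantile normalization or without abundant RNA, and 4, 1 and 5 negative under these, and 2 negative with no variance trend. CLP against GMP (1 and 2) became 0 positive without a filter, with either scaling, without abundant RNA or with no variance trend, and 1 negative with no variance trend. LMPP against GMP became 1 negative without a filter.

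With each library left out in turn, the lower members ranged from 28 to 53 (LMPP against GMP), 9 to 20 (LMPP against CLP) and 6 to 13 (CLP against GMP), the higher from 1 to 2, 0 to 1 and 2 to 2, and the medians from -0.53 to -0.418, -0.325 to -0.178 and -0.3 to -0.172. Between batches the ranges were 7 to 16 higher and 15 to 28 lower in CLP, 0 to 3 and 5 to 31 in GMP, and 0 to 0 and 12 to 39 in LMPP. The interactions ranged from 1 to 4 positive and 0 to 21 negative (LMPP against CLP) and 0 to 9 and 1 to 4 (CLP against GMP).

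Over all genes, median-ratio scaling moved the higher and lower calls from 920 and 356 to 604 and 535 in LMPP against CLP, from 1773 and 1267 to 1611 and 1582 in CLP against GMP, from 2711 and 1362 to 1823 and 2081 between CLP batches, from 783 and 263 to 165 and 438 between GMP batches and from 278 and 308 to 178 and 385 between LMPP batches. The replicate block gave 9 lower members in CLP against GMP. Whether replicate numbers pair the libraries could not be told.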
